A study of Mus musculus with 2 samples.

Results

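T, natural killer (NK) and innate lymphoid-like cells were sought among lineage-depleted, c-Kit+ Sca-1+ (LSK) bone marrow cells of mice, the sorted fraction that holds haematopoietic stem cells and multipotent progenitors. Cells were taken if they carried 1 or more UMIs (unique molecular identifiers, each standing for 1 captured transcript) of at least 3 of 9 genes: Ccl5, Xcl1, Ms4a4b, Klrk1, Klrd1, Ncr1, Nkg7, Il2rb and Tcf7. This rule took 123 of 18031 cells, 41 of 8815 in the Trmt6 WT library and 82 of 9216 in the Trmt6 cKO library. The levels of those 9 genes chose the cells, so they are given as a description and are no finding.

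TRMT6 is a subunit of the enzyme that methylates adenosine 58 of tRNA. The WT library came from mice with the Trmt6fl/fl genotype per the labels, and the cKO library from mice with Trmt6fl/fl and MX1-cre, a recombinase transgene driven by an interferon-inducible promoter that is active in haematopoietic cells and in other cells that respond to interferon. The mice were on a C57BL/6 background. The study describes injections of pIpC, an inducer of interferon, to delete the floxed alleles. It describes Mx1-Cre and pIpC for the controls as well, whereas the labels name no recombinase in WT. The mice were 3 months old, and the number pooled is not given in the sources used here. There was 1 library per genotype, so no difference between WT and cKO has a replicate check: genotype and library cannot be told apart. The intervals below are exact 95% intervals that cover counting error only, and no p-value is given.

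NK cells are lymphocytes that kill target cells with granules and secrete chemokines. They read their targets through receptors of the killer cell lectin-like family and through NKp46, the product of Ncr1. T cells signal through an antigen receptor whose CD3 chains are encoded by Cd3d, Cd3e and Cd3g, and innate lymphoid cells lack that receptor. Differentiation of innate lymphoid cells depends on the transcriptional regulator ID2. Of the rule genes, Ccl5 and Xcl1 encode chemokines, Nkg7 a granule membrane protein, Klrk1 the activating receptor NKG2D, Klrd1 its relative CD94, Il2rb a receptor chain shared by interleukin-2 and interleukin-15, Ms4a4b a membrane protein of T and NK cells, and Tcf7 the transcription factor TCF-1 of T cells and early innate lymphoid cells.

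Nkg7 and Ncr1 stood at opposite ends of the rule. Nkg7 (chromosome 7, 43437073 to 43438249, plus strand, GRCm38) was detected in 77.3% of the WT and 74.0% of the cKO cells outside the selection, and Ncr1 (chromosome 7, 4337724 to 4345164, plus strand) in 0.0114% and 0.0219%. Their promoters, 250 bases before to 50 bases after the start of the gene in RefSeq on GRCm38.p6, are shown for this contrast. Capitals mark TGTGGT, the core letters of the Runx motif, searched on both strands (ACCACA on the given strand), and GGTGTGA, the core letters of the T-box motif, searched on both strands.
Nkg7, chr7:43436888-43437187, plus strand: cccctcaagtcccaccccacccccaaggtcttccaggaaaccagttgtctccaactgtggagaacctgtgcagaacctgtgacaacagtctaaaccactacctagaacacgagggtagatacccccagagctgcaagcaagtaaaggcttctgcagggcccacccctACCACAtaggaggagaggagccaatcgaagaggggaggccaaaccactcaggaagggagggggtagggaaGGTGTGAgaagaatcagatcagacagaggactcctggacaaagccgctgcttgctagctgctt
Ncr1, chr7:4337465-4337764, plus strand: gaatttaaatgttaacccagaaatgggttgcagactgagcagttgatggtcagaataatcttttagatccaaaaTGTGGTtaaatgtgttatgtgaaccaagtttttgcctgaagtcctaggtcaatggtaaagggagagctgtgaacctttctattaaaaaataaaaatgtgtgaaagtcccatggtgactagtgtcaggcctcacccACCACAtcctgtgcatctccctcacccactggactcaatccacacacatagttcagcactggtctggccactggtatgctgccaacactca
Of the 9 rule genes, 6 matched a RefSeq promoter. TGTGGT was found in 4 of the 6, against 16.9% of 27025 promoters of the same length, and GGTGTGA in 2 of the 6, against 3.96%. Both promoters shown hold the Runx letters, and only that of Nkg7 holds the T-box letters. A match of letters is a description and not a binding site.

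The libraries differed in depth. The kept WT cells had a median of 4344 UMIs and the kept cKO cells 10305.5. Shared barcodes numbered 24 between the libraries, of which 1 was among the selected cKO cells and 0 among the selected WT cells. Levels are given as CPM, the UMIs of a gene summed over cells and scaled by all UMIs of the same cells. Trmt6 itself gave 25 UMIs, 86.0 CPM, in the selected WT cells and 19 UMIs, 58.3 CPM, in the selected cKO cells. The position of the deleted stretch relative to the 3' tags is not stated in the sources used here, so this level does not test the deletion. Trmt61a, which encodes the catalytic subunit, gave 4 and 3 UMIs.

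In WT 0.465% of the cells (0.334 to 0.630%) were selected and in cKO 0.890% (0.708 to 1.10%), a ratio of 1.91 (1.30 to 2.86). This ratio joined 2 kinds of cells whose shares differed in opposite directions. Cells with exactly 3 rule genes, just inside the rule, numbered 31 in WT (0.352%) and 14 in cKO (0.152%), a cKO over WT ratio of 0.432 (0.212 to 0.836). Cells with 4 or more numbered 10 in WT (0.113%) and 68 in cKO (0.738%), a ratio of 6.50 (3.33 to 14.2). Thus 31 of the 41 WT cells but 14 of the 82 cKO cells sat at the threshold.

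Just outside the rule, 428 WT cells (4.86%) and 219 cKO cells (2.38%) carried 2 rule genes, and Nkg7 was 1 of the pair in 418 and 213 of them. In WT the most frequent trio of the 3-gene cells was Klrk1, Ms4a4b and Nkg7, in 9 cells, followed by Ccl5, Nkg7 and Tcf7, in 6 cells. With Nkg7 left out of the rule, 14 WT cells (0.159%) and 69 cKO cells (0.749%) were selected. Thinning to 1000 UMIs per cell removed 20 WT and 11 cKO cells with fewer, and 3 or more rule genes were then found in 11 WT cells (0.125%) and 59 cKO cells (0.641%). At 2 rule genes the WT share was the higher, and without Nkg7 and after thinning the cKO share was, although the typical cKO cell outside the selection had more UMIs than the typical WT cell. For comparison, the cells of the same libraries chosen by pre-B genes numbered 21 in WT (0.238%) and 147 in cKO (1.60%), a ratio of 6.70 (4.22 to 11.1).

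The selected cKO cells had few UMIs. Their median was 2033, with a quartile range of 1608 to 3971, against 10341.5 in the other cKO cells. In WT the selected cells had a median of 5442 and the other cells 4339.5. Only the cKO selection therefore lay below the rest of its library. Split by the rule, the 3-gene cells had medians of 6774 in WT and 4182 in cKO, and the cells with 4 or more had 3305.5 and 1956.5. The cells with 4 or more thus had fewer UMIs than the other cells in both libraries, and the WT median of all selected cells was set by the 3-gene cells. Fewer than 5000 UMIs were counted in 8 of the 10 WT and 57 of the 68 cKO cells with 4 or more. In cKO the other 11 cells had a median of 12624 UMIs, and 5 of them were marked as likely doublets against 0 of the 57. In WT, 4 of the 3-gene cells were marked and 0 of the 10.

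**Figure D1:**
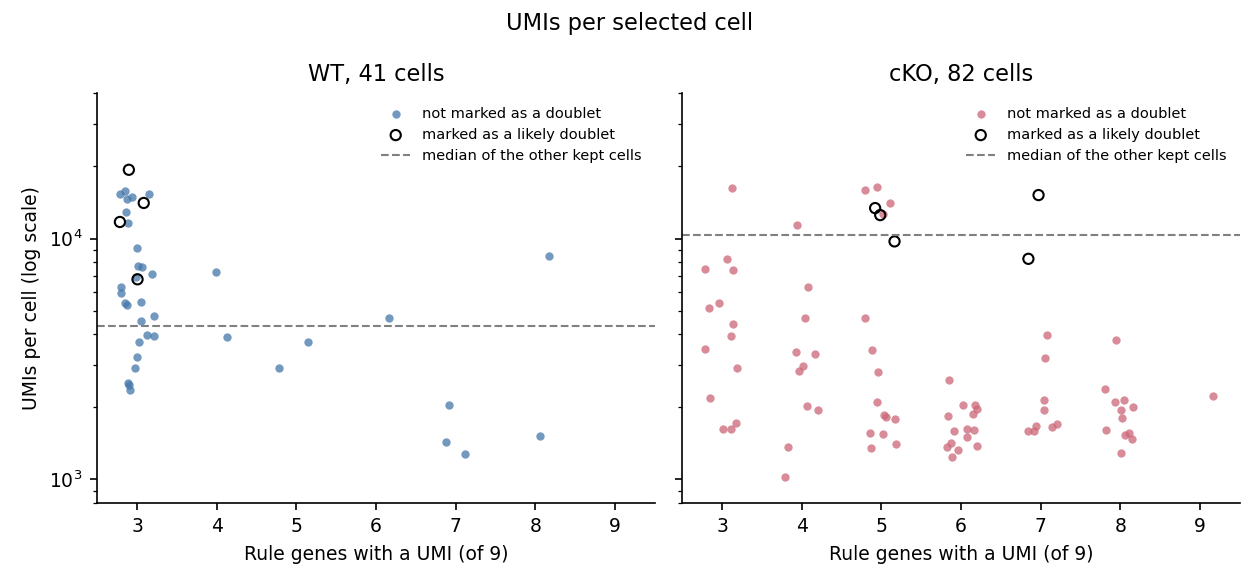
UMIs of each selected cell (log axis) by the number of rule genes detected, in WT and cKO, 1 point per cell; cells marked as likely doublets are drawn apart. The dashed line is the median of the other kept cells. Of the WT cells 31 of 41 carry 3 rule genes, and most cKO cells carry 4 or more at around 2000 UMIs (median 1956.5), with 11 cells at 5000 UMIs or more.

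Detection of the rule genes in the 2 kinds of cells is a description. The kinds were set by the number of these genes detected, so more detection with 4 or more was fixed by the rule. Among cells with 4 or more, Nkg7 was detected in 100% of WT and 97.1% of cKO cells, Ccl5 in 90% and 83.8%, Xcl1 in 80% and 63.2%, and Ncr1 in 50% and 50%. Among 3-gene cells Ncr1 was detected in 0 of 31 WT cells, which allows up to 11.2%, and in 0 of 14 cKO cells, which allows up to 23.2%. Il2rb was detected in 0 of the 31 and in 28.6% of the 14. Tcf7 was the exception among the cKO cells, found in 64.3% of the 3-gene cells and 20.6% of those with 4 or more. In the other cells the rule genes apart from Nkg7 were detected in at most 2.67% of WT cells (Ms4a4b) and 1.32% of cKO cells (Ccl5).

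Levels of the rule genes summed over cells with 4 or more are a description too, since these genes chose the cells. The level of Ccl5 was 5218 CPM (WT) and 4488 CPM (cKO), that of Nkg7 at 2474 and 1748 CPM, Xcl1 at 646 and 630 CPM, and Klrk1 at 484 and 520 CPM. None of the 9 differed by more than 1 on the log2 scale, whereas over all selected cells 8 of the 9 were higher in cKO by more than that, with a median log2 ratio of 2.14 against 0.07. In the cells with 4 or more under 5000 UMIs, 2 of the 9, Ms4a4b and Il2rb, were higher in cKO by more than 1. The median there was 0.69.

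**Figure D2:**
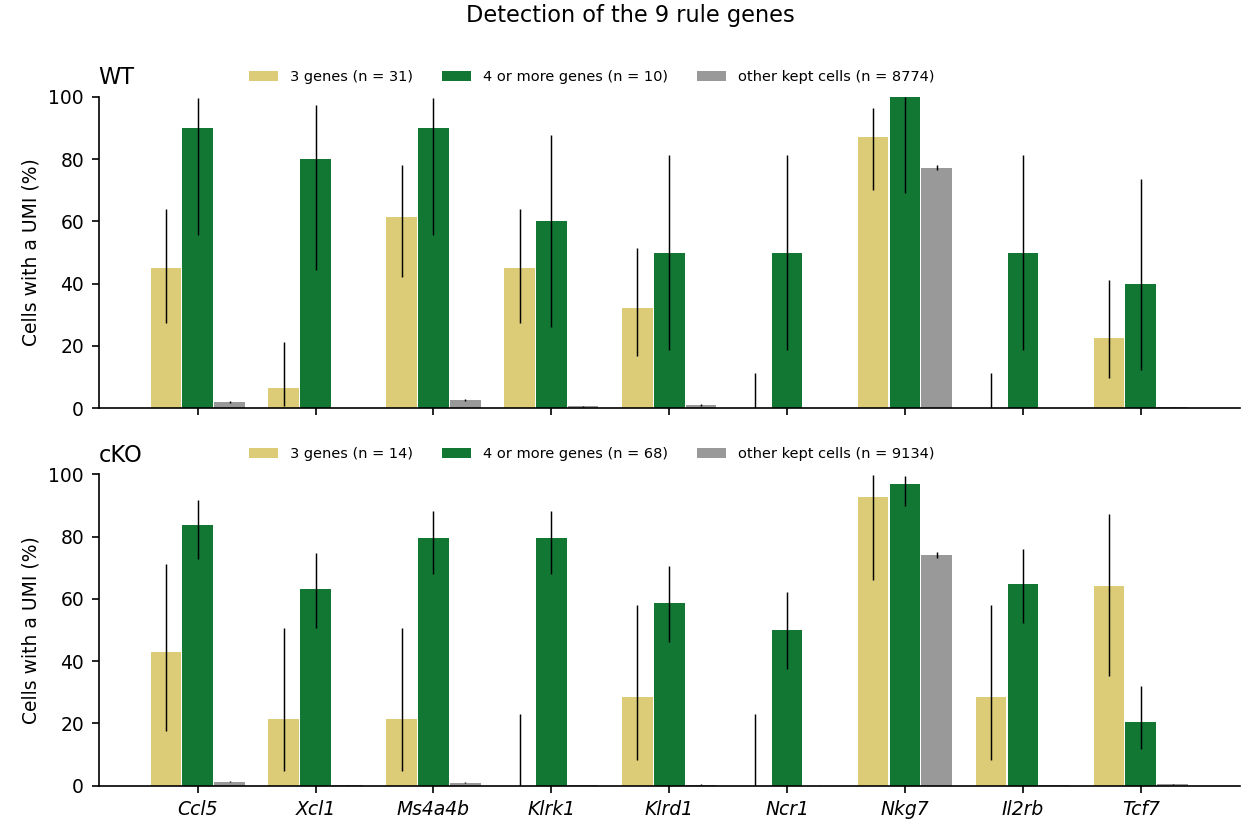
Percent of cells with 1 or more UMI of each rule gene (bars, with exact 95% counting intervals as lines) in the 3-gene cells, the cells with 4 or more, and the other cells of each library. Nkg7 is detected in most cells of every class, and Ncr1 in 50% of the cells with 4 or more and in 0 of the 3-gene cells. The classes were set by these genes.

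Lists of lineage genes that hold none of the rule genes were used to check the name. Of the cells with 4 or more, 100% in WT (10 cells) and 83.8% in cKO carried 2 or more of 25 NK genes, and 60% and 76.5% carried 2 or more of 19 T cell receptor pathway genes. In the other cells these shares were 0.969% and 2.09% for NK genes and 2.63% and 14.9% for T cell genes, the last in cells of 10341.5 UMIs at the median and at 0.417% once thinned to 1000 UMIs. Thinned to the same number, the cells with 4 or more kept 60% and 58.8% for NK genes and 30% and 47.1% for T cell genes. The name given to the cells thus had NK transcripts behind it where 4 or more rule genes were detected. The T cell share does not by itself tell T cells from NK cells. In 37 of these cKO cells an NK receptor (Ncr1, Klrb1c or Klre1) and no CD3 chain was detected. Of them 45.9% had a UMI of Lck and 40.5% of Cd2, both of the T cell list, but 0% of Cd5, Cd6 or Themis.

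The WT 3-gene cells held fewer of these genes. Of the 31, 0 carried 2 or more NK genes (up to 11.2%). T cell genes were found in this way in 12.9% (4 cells), against 2.63% of the other WT cells, innate lymphoid precursor genes in 25.8% against 5.596%, and genes of group 2 innate lymphoid cells in 12.9% against 3.41%. These shares were above those of the other WT cells, which had fewer UMIs at the median. All 31 carried 2 or more genes of a stem and progenitor list, as did 99.35% of the other WT cells. They expressed the primary granule genes of myeloid progenitors: Mpo, which encodes myeloperoxidase, in 22 cells at 4516 CPM, and the neutrophil proteases Elane in 22 cells at 3017 CPM, Prtn3 in 26 cells at 2228 CPM and Ctsg in 18 cells at 1664 CPM. The other WT cells expressed them too, with Mpo at 2294 CPM and Elane at 1835 CPM. Of the 1202 Mpo UMIs of all selected WT cells, 538 lay in 3 cells. They are called 3-gene cells here and are given no lymphoid name. The 14 cKO 3-gene cells were mixed, with 28.6% carrying 2 or more NK genes, 50% T cell genes and 85.7% progenitor genes.

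**Figure D3:**
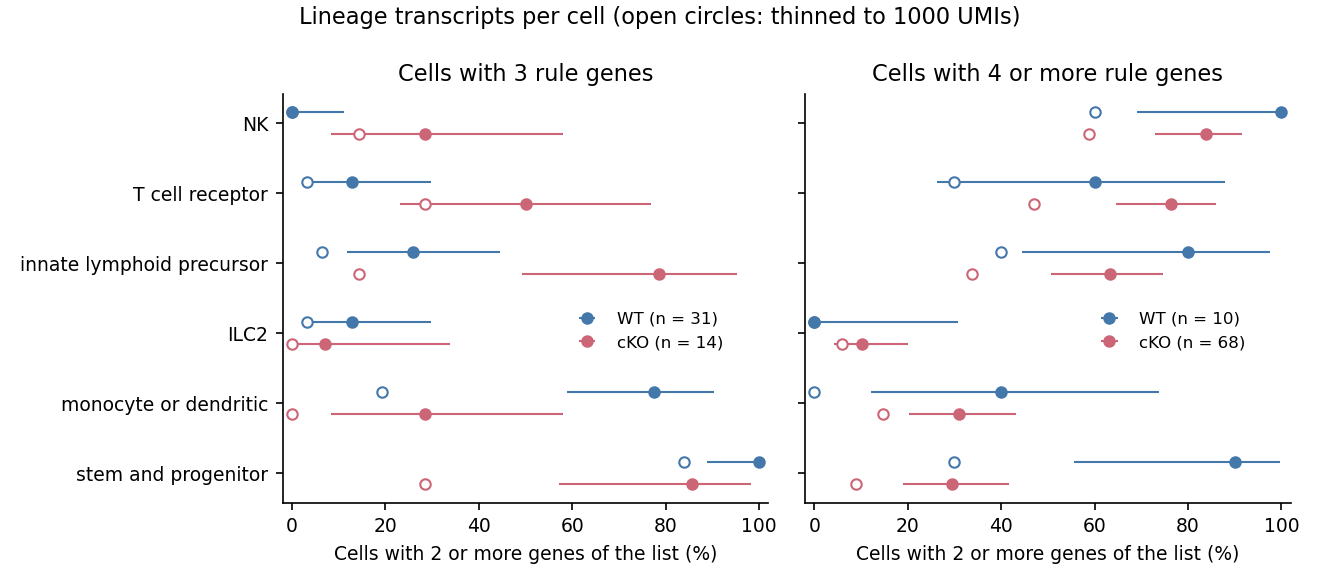
Percent of cells with 2 or more detected genes of each lineage list (rule genes left out) in the 3-gene cells (left) and the cells with 4 or more (right) of each library, with exact 95% counting intervals and, as open circles, the percent after thinning to 1000 UMIs. NK genes mark 100% of WT and 83.8% of cKO cells with 4 or more and 0% of the WT 3-gene cells, which all carry progenitor genes.

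In both libraries NK receptors led the genes that set the cells with 4 or more apart from the other cells. The Ly49 receptor gene Klra7 had 538 CPM among the WT and 205 CPM among the cKO cells, against 0.0210 and 0.0204 CPM in the other cells. Klra8 and Klrc1 (NKG2A), Klre1 and Cd160, all receptors of NK cells, followed the same pattern, with 242 and 122 CPM for Klra8 and 269 and 252 CPM for Klre1. Klrb1c, which encodes NK1.1, gave 4 UMIs in 2 of 10 WT cells and 84 UMIs in 44 of 68 cKO cells. The adhesion receptor gene Cd2 gave 4 UMIs in 4 WT cells and 36 UMIs in 27 cKO cells. Cd7, a surface molecule of T and NK cells, was the most abundant of these genes in cKO, at 1028 CPM, and stood at 538 CPM in WT, against 1.24 and 3.69 CPM in the other cells. Closely related Ly49 genes may share reads, so their separate levels are uncertain.

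CD3 chains were found beside NK receptors. The cells with 4 or more held 37180 UMIs in all in WT and 253998 in cKO. UMI numbers of a gene, here and below, are therefore not levels, and a like level gives far fewer UMIs in WT. In the cells with 4 or more, Cd3d (chromosome 9, 44981786 to 44987339, plus strand) gave 6 UMIs in WT and 49 in cKO, Cd3g gave 5 and 29, and Cd3e 0 and 11. The kinase genes Lck and Zap70 gave 6 and 64 UMIs and 3 and 7 UMIs. By contrast Cd4 and Cd8b1 gave 0 UMIs in both libraries, Cd8a gave 0 in WT and 2 in 1 cKO cell, and Cd5 gave 0 and 1. Antibodies against CD4 and CD8 are in the lineage cocktail that the study lists for flow cytometry, so removal of such cells by a sort and absence from the marrow cannot be told apart for these co-receptors. The T cell receptor list named 25 genes, and 19 of these were found in the count matrices. The constant regions of the T cell receptor chains are not among the 19 and are not described here.

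Each cell was scored on Cd3d, Cd3e and Cd3g against Ncr1, Klrb1c and Klre1, a split chosen after the values had been seen. Ncr1 is a rule gene, so the NK receptor side draws in part on values that chose the cells and its counts are a description. The cKO cells with 4 or more fell into 37 with an NK receptor alone, 23 with both, 3 with CD3 chains alone and 5 with neither. In WT the numbers were 5, 4, 0 and 1. Cells with both had a median of 1779 UMIs in cKO and 1473.5 in WT, below the medians of the other cells of their libraries. CD3 chains, which the rule did not use, were detected in 26 of the 68 cKO (38.2%) and 4 of the 10 WT cells (40%), against 0.252% of the other cKO and 0.239% of the other WT cells, at medians of 10341.5 and 4339.5 UMIs.

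Id2 was detected in 91.9% of the 37 cells with an NK receptor alone and 87.0% of the 23 with both, and Ltb, which encodes lymphotoxin beta, in 86.5% and 78.3%. Of the other cKO cells 16.5% had a UMI of Id2 and 45.8% a UMI of Ltb. Thinned to 1000 UMIs, Id2 was detected in 64.7% of the cKO cells with 4 or more and 2.61% of the other cKO cells, and Ltb in 52.9% and 10.5%. Neither gene was used by the rule or by the split. Other genes were found mainly in the cells without CD3 chains: Tox, a regulator of early innate lymphoid and T cells, was detected in 12 of the 37 and 0 of the 23, and Klf2, a regulator of lymphocyte exit from tissue, in 15 and 1. Itgb7, an integrin chain, was found in 13 of the 37 and 2 of the 23. These 3 genes were picked for their difference, which was not tested.

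Genes of the killing granules were described by their UMIs in the cells with 4 or more. Prf1, which encodes perforin, gave 0 UMIs in the 10 WT and the 68 cKO cells with 4 or more, which in cKO allows up to 14.5 CPM. Gzma was found in 3 WT and 5 cKO cells, and Gzmb in 1 and 6, with 16 of the 23 cKO UMIs of Gzmb in 1 cell. Of chemokine genes other than Ccl5 and Xcl1, Ccl4 gave 9 UMIs in WT and 32 in cKO and Ccl3 gave 5 and 11. Ccl3 stood at 134 CPM (WT) and 43.3 CPM (cKO) in these cells, against 177 and 3.22 CPM in the other cells. Ifng gave 0 and 2 UMIs and Tnf 0 and 2. Ctsw, a cathepsin of cytotoxic lymphocytes, gave 1 UMI in WT and 61 in cKO, and Srgn, a granule proteoglycan, 29 and 174.

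The maturity markers of NK cells were uneven. Eomes, a T-box factor of NK cells, gave 7 UMIs in WT and 16 in cKO, and Tbx21 (T-bet) 1 and 2. These are out of 37180 UMIs in WT and 253998 in cKO. Under 5000 UMIs Eomes was at 186 CPM in WT (4 UMIs) and 135 CPM in cKO (16 UMIs). Itga2 (CD49b), S1pr5 and Cx3cr1, which mark mature NK cells, gave 0 in both. The lineage cocktail that the study lists also holds an antibody against CD11B, and its part in these values was not tested. The chemokine receptor gene Cxcr3 gave 1 and 18 UMIs.

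Of the cells with 4 or more, 80% in WT and 63.2% in cKO carried 2 or more of 12 innate lymphoid precursor genes, against 5.596% and 15.9% of the other cells. Thinned to 1000 UMIs these shares were 40% and 33.8%, against 0.263% and 0.702%. Id2 was the most widespread of them in cKO. It was found in 7 of 10 WT and 60 of 68 cKO cells with 4 or more, with 20 and 203 UMIs. Il18r1 gave 3 and 23 UMIs, Cxcr6 0 and 17, Gata3 0 and 17, Il7r 0 and 15 and Rora 0 and 7. Zbtb16, which encodes PLZF of innate lymphoid precursors, and Pdcd1 gave 0 in both libraries. Genes that mark group 2 innate lymphoid cells, Il1rl1, Il5, Il13, Areg and Il17rb, also gave 0 UMIs in both. Of the cells with 4 or more, 10.3% in cKO and 0% in WT carried 2 or more genes of that list, against 11.3% and 3.41% of the other cells. Thinned to 1000 UMIs these shares were 5.88% (4 cells) in cKO and 0% in WT, against 0.691% and 0.377%.

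Kit and Ly6a, genes of the sort, were detected in cKO cells with 4 or more and in none of the 10 WT cells. Kit, the receptor used to sort LSK cells, gave 0 UMIs in WT, which allows up to 99.2 CPM against 63.2 CPM in the other cells, and 9 UMIs in cKO, 35.4 CPM against 21.5 CPM. Ly6a, which encodes Sca-1, gave 0 UMIs in WT, against 34.3 CPM, and 48 UMIs in 26 cKO cells, 189 CPM (139 to 251) against 141 CPM. The levels of both genes in cKO were thus not below those of the other cells, and in WT the depth could not show a difference. Flt3 gave 3 and 3 UMIs and Cd34 8 and 19. In cKO 29.4% of the cells with 4 or more carried 2 or more progenitor genes and 43 of the 68 had 0 UMIs of Kit, Cd34, Flt3, Mpo, Elane, Prtn3 and Ctsg. The 11 cells at 5000 UMIs or more held 88.2% of the 144 UMIs of these 7 genes and 53.4% of all UMIs of the 68 cells. In WT 90% of the 10 cells carried 2 or more progenitor genes, each of the 10 had a UMI of these 7, and 2 cells held 74.3% of their 144 UMIs and 42.3% of all UMIs. In both libraries the larger cells thus held more of the progenitor transcripts than of all transcripts, and 98 of the 144 WT UMIs lay in 1 cell. The lineage cocktail that the study's methods list for flow cytometry has antibodies against CD11B, CD4 and CD8 among others, and none against CD3 or an NK receptor. Itgam, which encodes CD11B, gave 0 UMIs in the 37 cKO cells with an NK receptor alone and in the 23 with both.

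Antigen presentation genes were found in a minority of cells. Cd74, the invariant chain of MHC class II, gave 1 UMI in WT and 231 UMIs in 22 cKO cells, of which 3 cells held 58.4%. Its log2 ratio, cKO over WT, was 4.50 (2.59 to 10.4) from that 1 WT UMI, 0.72 in the other cells, 3.14 in the other cells under 5000 UMIs and 5.01 in the cells chosen by pre-B genes. H2-Aa gave 0 and 53 UMIs and H2-Ab1 3 and 56. Siglech and Csf1r, of plasmacytoid dendritic cells and macrophages, gave 0 in both. The monocyte or dendritic list, which includes MHC class II genes, was detected with 2 or more genes in 40% of WT and 30.9% of cKO cells, against 44.6% and 55.5% of the other cells, and its part in other results was not tested. These shares are unthinned and not at like depth. The other cells had medians of 4339.5 UMIs in WT and 10341.5 in cKO, against 3305.5 and 1956.5.

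Levels in cKO and WT were then compared over all selected cells, on UMIs summed per library, for 1692 genes at 100 CPM or more in at least 1 library (29.1 UMIs in WT and 32.6 in cKO). Of these, 117 were more than 1 higher on the log2 scale in cKO (6.91%) and 132 more than 1 lower (7.8%). The proportion of 3-gene cells differed between the libraries, so each value is set beside that of the cells with 4 or more. There 100 CPM is 3.72 UMIs in WT and 25.4 in cKO, and of 1943 genes 139 lay above the fold (7.15%) and 363 below it (18.7%). Outside the selection 37 of 1583 genes lay above it (2.34%) and 66 below it (4.17%). In the cells with 4 or more under 5000 UMIs, 12.8% of 1869 genes lay above it and 19.9% below it. The median of all genes was -0.06 in the selected cells, -0.21 in those with 4 or more and 0.03 in the other cells.

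A gene that reached the minimum through 1 library alone had to be higher in that library, so gene lists are described over the genes at 100 CPM or more in both libraries, a limit chosen after the values had been seen. Over all selected cells this left 1195 genes, of which 2.34% lay above the fold and 3.26% below it. In the cells with 4 or more it left 1177 genes, with 1.61% above and 4.67% below, and in the other cells 1273 genes, with 0.786% above and 1.73% below. Under 5000 UMIs it left 1030 genes in the cells with 4 or more, with 2.72% above and 9.71% below, and 1261 genes in the other cells, with 0.238% above and 1.74% below.

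Lymphoid genes were among the highest in cKO. Klrb1c (chromosome 6, 128778485 to 128789215, minus strand) had 4 WT and 84 cKO UMIs, for a log2 ratio of 4.07 (2.82 to 6.14), and 1.46 (0.21 to 3.53) among cells with 4 or more. Ctsw was 3.76 (2.50 to 5.84) and 2.59 (0.63 to 8.49), the second value from 1 WT UMI and again through cKO alone. Ly6a, a gene of the sort, was at 3.72 (2.46 to 5.80) over all selected cells and was also higher in cKO outside the selection, at 2.04. Ltb was 2.75 over all selected cells and 0.86 (0.15 to 1.77) among those with 4 or more, and it too was higher in cKO outside the selection, at 0.79 and, under 5000 UMIs, at 1.74. Over all selected cells 5 of 25 NK genes and 4 of 19 T cell genes reached the minimum level, each of them through cKO alone, so no count of them is given as a difference. Among cells with 4 or more, 6 NK genes reached it in both libraries, of which Klrb1c was past the fold upward and Klra7, at -1.42 (-2.16 to -0.57), and Klra8, at -1.04 (-2.09 to 0.27), were past it downward. The 4 T cell genes at the minimum in both, Cd3d, Cd3g, Lck and Cd2, were not past the fold, with a median of 0.20. Under 5000 UMIs 1 of these 4 was past it upward, Lck at 1.62 (0.22 to 4.15) from 3 WT UMIs, and the median was 0.55.

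The primary granule genes Mpo and Elane had the lowest ratios. Mpo had 1202 UMIs in WT and 4 in cKO (log2 ratio -8.23) and Elane 777 and 0, a log2 ratio of at most -8.18 against a floor of 3 counts. F13a1 (75 and 0 UMIs) and Dntt (74 and 0), the terminal transferase of early lymphoid progenitors, had bounds of -4.81 and -4.79. Clec12a (-4.79), Ms4a6c (-4.74), Ly86 (-4.64), Ctsh, Slpi and Ccl9, most of them genes of myeloid cells, completed the 10 lowest. Of the 777 Elane UMIs, 765 lay in WT 3-gene cells, and likewise 1145 of the 1202 of Mpo. Mpo was also lower in cKO in the other cells, at -4.61. Of the stem and progenitor genes at the minimum in both libraries, 3 of 4 were past the fold downward in all selected cells (median -1.82), 3 of 4 among cells with 4 or more (-1.16) and 4 of 5 in the other cells (-1.35). Its summed level was 11804 CPM in WT and 1222 CPM in cKO over all selected cells, and 4599 and 1051 CPM among cells with 4 or more. Its part in the other differences was not tested.

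Targets of ATF4, the transcription factor that turns on amino acid synthesis and transport under stress, were among the genes highest in cKO. Over all selected cells Ddit4 had 2 UMIs in WT and 72 in cKO (log2 ratio 4.69), Nupr1 1 and 41 (4.63), Asns, which encodes asparagine synthetase, 1 and 38 (4.52), and Trib3 0 and 34, at least 3.34 against a floor of 3 counts. Of the list 15 genes were at the minimum level, and the 9 past the fold upward were among the 10 that reached it through cKO alone. Of the 5 at the minimum in both libraries 0 were past the fold in either direction, with a median of 0.75. Among cells with 4 or more 1 of 4 such genes was past it upward (Phgdh, an enzyme of serine synthesis, at 1.37 with an interval of 0.12 to 3.44), with a median of 0.59. There Nupr1 was at 1.83 (-0.17 to 7.74) and Asns at 1.53 (-0.51 to 7.44) from 1 WT UMI each, and Ddit4 had 0 and 37 UMIs and Trib3 0 and 24. In the other cells 1 of 4 genes at the minimum in both libraries was past the fold upward, with a median of 0.94. Cdkn1c, which encodes a cell cycle inhibitor and lies outside this list, had 1 and 47 UMIs (4.82) over all selected cells and 0 and 7 UMIs among cells with 4 or more. Hopx (3.66) and Gem (3.14) completed the 10 highest.

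The ATF4 targets were then summed by size of cell. Over Trib3, Asns, Atf5, Ddit4, Mthfd2 and Psat1, which were chosen after their values had been seen so that a higher sum in cKO was fixed by the choice, the level in cells with 4 or more was 80.7 CPM in WT (3 UMIs) and 650 CPM in cKO (165 UMIs). The 11 cKO cells at 5000 UMIs or more held 71.5% of the 165 UMIs and 53.4% of all UMIs, and 32 of the 68 cells had none. Under 5000 UMIs the level was 0 UMIs in 8 WT cells, which allows up to 172 CPM, and 397 CPM (292 to 528) in 57 cKO cells. In the other cells under 5000 UMIs it was 96.3 and 424 CPM, and in all other cells 114 and 882 CPM. Single genes were few in the small cKO cells: Trib3 was found in 0 of 57, and Nupr1 in 3 of 57. Ddit4, which encodes an inhibitor of mTORC1, was found in 11 of 57, at 186 CPM against 93.6 CPM in the other cKO cells under 5000 UMIs and 57.6 CPM in all other cKO cells. Nars, an asparagine-charging tRNA synthetase, was found in 19 of 57, and in 0 of the 8 WT cells. Of the whole list 4 genes reached the minimum in both libraries in these small cells, of which 0 were past the fold upward and 1 downward (Aars at -1.17), with a median of -0.48.

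**Figure D4:**
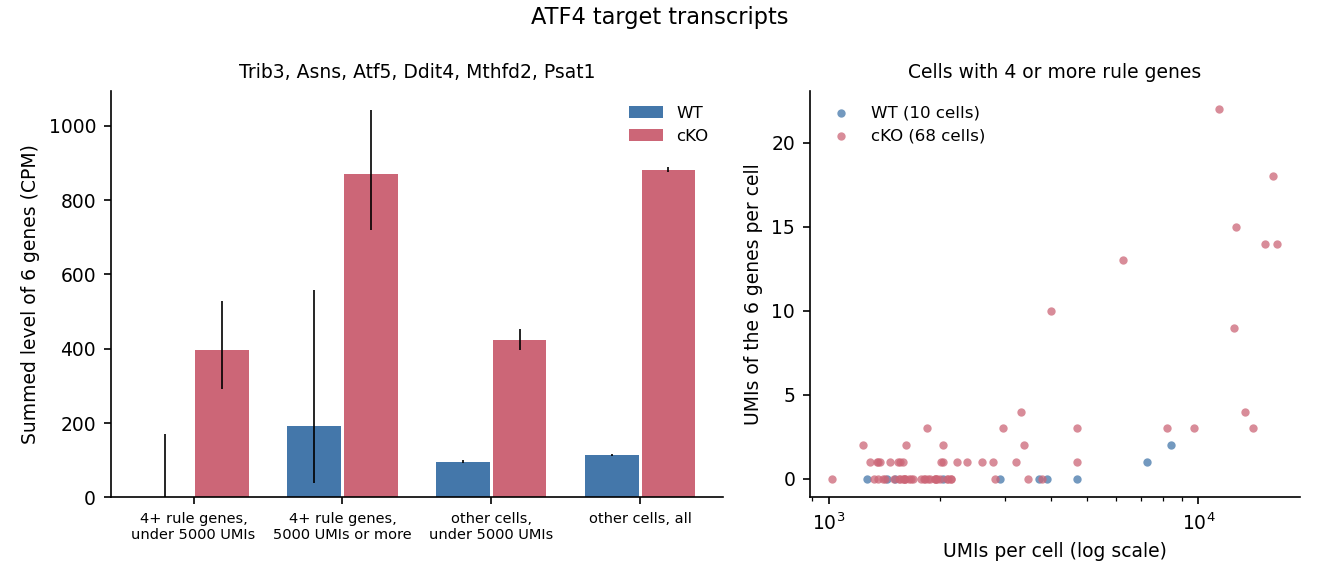
Left, summed level (CPM) of Trib3, Asns, Atf5, Ddit4, Mthfd2 and Psat1 in 4 classes of cells, WT and cKO, with exact 95% counting intervals; right, UMIs of these genes in each cell with 4 or more rule genes against the UMIs of the cell (log axis). The genes were chosen with their values known, so the order of the libraries is fixed by that choice; the cKO cells with 4 or more under 5000 UMIs are at 397 CPM, and the cells with the most UMIs of these genes are mostly those at 5000 UMIs or more.

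Immediate early genes behaved otherwise. Jun, a subunit of AP-1 that is induced within minutes of stimulation and by cell handling, was lower in cKO at -1.31 over all selected cells, at -1.75 (-2.29 to -1.16) among cells with 4 or more and at -3.34 in the other cells. Junb was at 0.24 (-0.05 to 0.52), -0.87 and -1.58, and Jund at -0.30, -1.21 and -2.23. Of the genes of the list at the minimum in both libraries, 1 of 8 was past the fold upward and 1 downward in all selected cells, 0 and 3 of 12 among cells with 4 or more, and 0 and 4 of 6 in the other cells. In the other cells under 5000 UMIs they were 0 and 4 of 10, with a median of -0.85 against -0.72 among cells with 4 or more. In sum the list had 6868 WT and 2022 cKO CPM in the other cells, 10336 and 5067 CPM in those under 5000 UMIs, 4863 and 4727 CPM over all selected cells and 8365 and 4921 CPM among those with 4 or more. The ratio between the libraries was thus nearer 1 in the selected cells than in all other cells, but under 5000 UMIs the median was -0.48 in cells with 4 or more, with 0 of 13 genes past the fold upward and 1 downward, beside the -0.85 of the other cells. This difference between cell classes was not tested.

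MHC class I genes, read by inhibitory receptors of NK cells, are given like the lists after them over the genes at the minimum in both libraries. Of the MHC class I genes 2 of 4 were past the fold upward over all selected cells (2.34% of all such genes), with a median of 0.66, 0 of 5 among cells with 4 or more (0.05) and 0 of 5 in the other cells (0.00). Among cells with 4 or more H2-D1 stood at 2555 CPM (WT) and 3587 CPM (cKO), and its log2 ratio was 0.48 (0.18 to 0.81), H2-K1 at 0.02 and B2m at 0.05. Proliferation genes were past the fold downward in 1 of 8 over all selected cells (3.26% of all such genes) and in 0 of 6 among cells with 4 or more. Interferon response genes, of interest after pIpC, were past it in 0 of 4 over all selected cells, and among cells with 4 or more in 1 of 4 upward (Ifitm3 at 1.36, 0.43 to 2.69) and 0 downward. In those under 5000 UMIs 0 of 4 were past it in either direction, and Ifitm3 was at -0.99 (-2.60 to 1.21). MYC targets gave 0 of 13 and the p53 response list 0 of 2 over all selected cells, in either direction. The innate lymphoid precursor list had 0 of 2 genes past the fold among cells with 4 or more and the granule list 0 of 2, and 0 genes of the sort list met the limit. Of the group 2 innate lymphoid list 0 genes reached the minimum level.

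**Figure D5:**
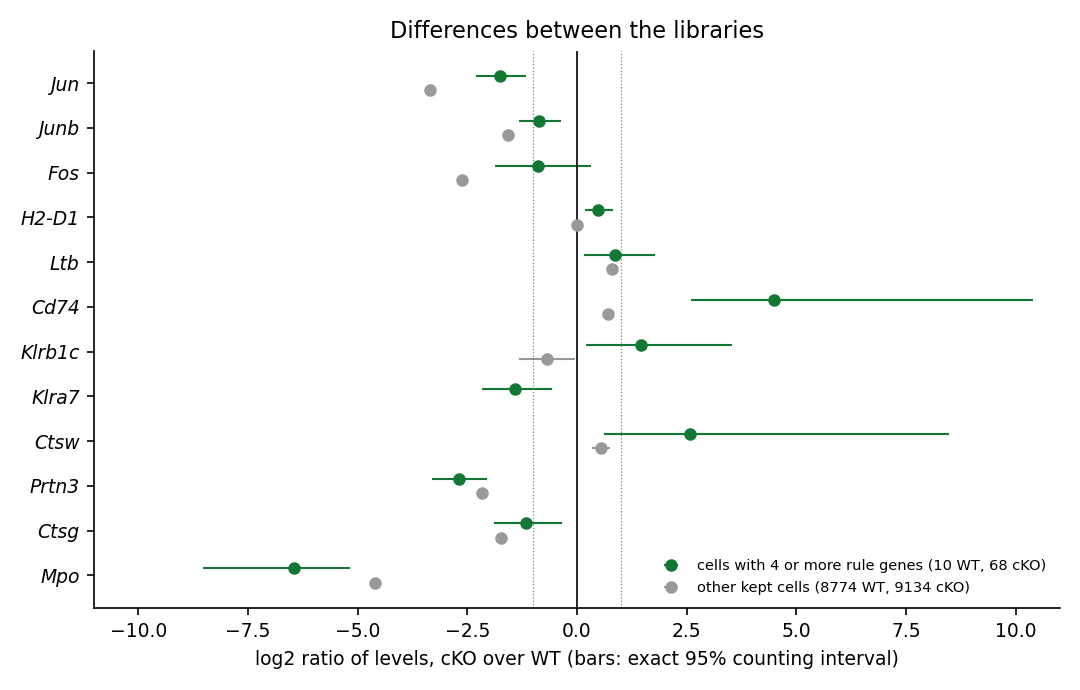
Log2 ratio of levels, cKO over WT, for 12 genes in the cells with 4 or more rule genes and in the other cells, with exact 95% counting intervals and dotted lines at the fold of 1; Klra7 has no point in the other cells, where it had too few UMIs. Klrb1c lies at 1.46 in the cells with 4 or more, Cd74 lies at 4.50 there from 1 WT UMI and at 0.72 in the other cells, and Jun lies below 0 in both classes.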

How the data were processed

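LSK cells of 1 Trmt6 WT and 1 Trmt6 cKO library were analysed. The deposited values are raw UMI counts of each gene in each barcode. The authors obtained them by Cell Ranger 6.0.0 (submitters' processing notes) on GRCm38 (mm10), and the labels name the Chromium 3' kit v2 and the methods v3. There was 1 library per genotype. Members and gene lists were chosen with earlier results of these data known.

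Barcodes with over 200 genes and under 10% mitochondrial UMIs were kept (8815 of 8869 WT, 47947907 UMIs; 9216 of 9260 cKO, 98266526 UMIs). Levels are CPM of summed UMIs, and ratios add 0.5 prior counts. The comparison took genes that reached 100 CPM in either library with over 3 UMIs in 1 of them, gene lists are described at 100 CPM in both, and past the fold means an absolute log2 ratio over 1. Intervals are exact 95% (Clopper-Pearson, Poisson, conditional binomial) and cover counting error only. Doublets were the highest shares of simulated doublets among 50 nearest neighbours, at 0.8% per 1000 barcodes (7.09% of WT and 7.41% of cKO cells), and were marked, not removed.

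Genes named are the rule genes, Trmt6 and Trmt61a, genes of the T cell receptor, NK, group 2, innate precursor, granule and sort lists, the 10 highest and 10 lowest ratios, the 15 genes highest over the other cells, and in every other list up to 5 genes with the most UMIs and those past the fold. Leaders of the cells with 4 or more, genes differing between CD3 and NK receptor cells, and chemokine, receptor and antigen presentation genes were named after their values were seen. Python 3.11.15, numpy 2.4.6, scipy 1.17.1, pandas 2.3.3, scikit-learn 1.9.0 and matplotlib 3.10.9 were used, and the scripts were tested on simulated data. Coordinates are GENCODE on GRCm38.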

Additional observations from a re-analysis of the deposited data

Results flagged for a closer look

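Btg1, an antiproliferative regulator of quiescent lymphocytes, was singled out because its difference between the libraries had opposite directions in the selected cells and in the other cells. Its log2 ratio of cKO over WT was 1.47 (1.002 to 1.980; 48 and 150 UMIs) in the selected cells and -1.60 (-1.67 to -1.54) in the other cells. Among cells with 4 or more rule genes it was 0.25 (-0.49 to 1.17), and in the other cells under 5000 UMIs 0.12 (-0.04 to 0.28), so the opposite direction was not seen in other cells of low UMI total.

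Cd52, which encodes a surface glycoprotein of lymphocytes and myeloid cells, was singled out for the same reason, at 1.21 (0.92 to 1.52; 126 and 328 UMIs) in the selected cells and -1.91 (-1.96 to -1.86) in the other cells. Among cells with 4 or more it was 0.67 (0.13 to 1.32), and in the other cells under 5000 UMIs 0.32 (0.19 to 0.46), again without the opposite direction. The difference between the cell classes was not tested for either gene, with 1 library per genotype.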

How the results depend on the processing

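No paired analysis was possible because there was 1 library per genotype, and for the same reason no replicate could be left out. Each value below replaces one given above, and the cause of a change was not tested where the alternative itself does not show it. The alternatives without Nkg7 and those limited to cells under 5000 UMIs or to genes at 100 CPM in both libraries were chosen after seeing the data. The share of selected cells in WT, 0.465% as reported, was 0.113% with 4 or more rule genes, 5.32% with 2 or more, 0.159% without Nkg7, 0.125% thinned to 1000 UMIs and 0.139% thinned to 2000 UMIs. In cKO, 0.890% as reported, it was 3.27% with 2 or more rule genes and 0.641% and 0.352% after thinning. The cKO over WT ratio of shares, 1.91 as reported, was 6.50 with 4 or more, 4.71 without Nkg7, 5.12 thinned to 1000 UMIs and 2.52 thinned to 2000 UMIs, and it reversed to 0.614 with 2 or more rule genes, where most cells carried Nkg7 and 1 other. The median UMIs were 3305.5 in WT with 4 or more and 8731 in cKO with 2 or more.

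Among the selected cells, 117 genes were past the fold upward as reported. This number was 39 with 2 or more rule genes, 303 in cells with under 2 progenitor genes, 194 in cells under 5000 UMIs, 240 with 4 or more and under 5000 UMIs, 181 with each cell scaled to its own total, 214 on totals without mitochondrial and ribosomal protein genes, 289 at a minimum of 50 CPM, 52 at 200 CPM and 28 at 100 CPM in both libraries. The 132 genes past it downward became 363 with 4 or more, 58 with 2 or more, 608 with under 2 progenitor genes, 236 without Nkg7, 289 under 5000 UMIs, 372 with 4 or more and under 5000 UMIs, 293 at 50 CPM, 61 at 200 CPM and 39 at 100 CPM in both libraries. In the other cells the numbers upward were 69 on the reduced totals, 73 at 50 CPM, 19 at 200 CPM and 10 at 100 CPM in both libraries (37 as reported), and downward 131, 38 and 22 at these minimums (66 as reported). In smaller classes of cells the minimum level stands for fewer UMIs.

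For gene lists the share of genes past the fold is given over genes at the minimum level in either library, some of which had to differ, so none of these shares supports a direction. NK and T cell genes over all selected cells (100% of 5 and of 4) reached that level through cKO alone. NK genes upward were 10% with 4 or more, 25% without Nkg7, 50% with under 2 progenitor genes, 56.25% under 5000 UMIs and 27.8% with 4 or more under 5000 UMIs, and T cell genes 16.7% with 4 or more and 42.9% with 4 or more under 5000 UMIs. ATF4 targets upward (60%) were 30% with under 2 progenitor genes, 33.3% under 5000 UMIs, with each cell scaled to its own total and at 200 CPM, 22.2% with 4 or more under 5000 UMIs and 0% at 100 CPM in both libraries. Immediate early genes downward (6.25%) were 36.8% with 4 or more, 50% with 2 or more, 35.3% with under 2 progenitor genes, 21.1% under 5000 UMIs, 17.6% without Nkg7, 16.7% with 4 or more under 5000 UMIs, 12.5% both without Tcf7 and at 100 CPM in both libraries, 11.8% with each cell scaled to its own total and 11.1% at both 50 and 200 CPM. Progenitor genes downward (87.5%) were 50% with under 2 progenitor genes, and 100% under 5000 UMIs, with 4 or more under 5000 UMIs and with each cell scaled to its own total. MHC class I genes upward (50%) were 0% with 4 or more, with 2 or more, with under 2 progenitor genes, without Nkg7, and with 4 or more under 5000 UMIs.

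Thinned to 1000 UMIs, the percent of selected cells with 2 or more T cell genes was 9.76% in WT and 43.9% in cKO, and 47.1% in cKO cells with 4 or more. For NK genes it was 60% in WT and 58.8% in cKO cells with 4 or more and 51.2% in all selected cKO cells. For group 2 genes it was 2.44% in WT. For progenitor genes it was 70.7% in WT and 12.2% in cKO over all selected cells, and 30% and 8.82% with 4 or more. Single genes were checked for the 10 highest and 10 lowest ratios and for Cd74, Ltb, Id2, Jun, Btg1 and Bcl2. Among ratios past the fold as reported, 4 values changed sign: Nupr1 at -0.88 with 4 or more under 5000 UMIs, Trib3 at -0.86 with under 2 progenitor genes, Btg1 at -0.17 with 2 or more rule genes and Bcl2 at -0.26 with 4 or more. Other genes, such as Junb, were not in this check. Of the other single-gene values 310 stayed on the same side of the fold as reported, and 21 crossed it without a called value changing sign.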

Other observations

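Several genes outside the rule were higher in the selected cells than in the other cells of both libraries. Tyrobp and Fcer1g, which encode signalling adaptors of NK and myeloid receptors, stood at 636 and 709 CPM in the selected WT cells against 208 and 244 CPM in the other WT cells, and at 878 and 909 CPM in the selected cKO cells against 40.7 and 86.1 CPM. Ly6c2 was at 447 and 126 CPM in the selected WT and cKO cells, and in WT its 130 UMIs all lay in 3-gene cells. Bcl2, a survival factor, was at 124 and 267 CPM against 60.9 and 26.0 CPM in the other cells. The GIMAP GTPase genes of lymphocytes were detected in the cells with 4 or more: Gimap4 in 7 of 10 WT and 45 of 68 cKO cells, Gimap7 in 3 and 28, and Gimap3 in 3 and 27.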
